A study of Homo sapiens with 31 samples.

Results

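The transcriptomes compared here were those of C13* shCEBPB (n = 8) and C13* shCON (n = 7), 15 of the 31 libraries of the series, with each library assigned by its sample label. The FPKM table (a level of fragments corrected for transcript length and for the mapped reads of the library) held 19221 genes. Of these, 12006 reached at least 1 FPKM in at least 7 of the 15 libraries and were tested on log2(FPKM + 1), whatever pathway they belong to. C13* is a human cell line that the labels call adenocarcinoma and the study uses as an ovarian carcinoma model able to repair DNA by homologous recombination, while stating a reservation about where the line came from. shCEBPB cells are labelled as taken after knockdown of C/EBPβ, for which a lentivirus carrying a short hairpin RNA (shRNA) was used, and shCON cells, named as the control of that shRNA, are labelled as taken before it. Both groups were grown in RPMI-1640 with fetal bovine serum, and neither label names a drug. The libraries of a group are called biological replicates of 1 cell line, without saying what was separate between them and without naming the hairpin, so the p-values below measure only the spread between these libraries.

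C/EBPβ belongs to the leucine zipper factors and binds DNA as a dimer, with itself, with other C/EBP proteins or with AP-1 and ATF family members. It is known for switching on acute-phase, inflammatory and differentiation genes in liver, fat, macrophages, mammary gland and epidermis. Ovarian carcinoma cells usually express simple epithelial keratins, adhesion molecules of epithelium and genes of the Müllerian duct lineage, whereas keratins of stratified epithelium mark squamous cells.

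Before the genes are described, the identity of the libraries needs to be set out, because the 2 groups of the C13* line were unlike each other. Across genes, library pairs correlated at a median Pearson r of 0.996 within shCON and 0.993 within shCEBPB, but at 0.789 (0.777 to 0.792) between shCON and shCEBPB. Genes are not independent replicates, so these correlations are descriptions. The shCON libraries correlated with those of A2780 OlaR, the olaparib-resistant derivative of another line, at a median of 0.989, whereas A2780 OlaR and the A2780 line it is labelled as derived from correlated at 0.706. There were 216 genes at 0.5 FPKM or less in every library of 1 C13* group and at 10 FPKM or more in every library of the other, 0 such genes between shCON and A2780 OlaR, and 307 between A2780 OlaR and A2780. GSTM1, a glutathione transferase gene that many human genomes lack through a germline deletion, was listed at 0 in all 7 shCON and all 8 A2780 OlaR libraries and at 58.4, 63 and 78.4 FPKM (lowest, median and highest library) in shCEBPB. The library of shCON replicate 1 has A2780 in its cell line field and C13* in its title, and every pair of shCON libraries, this one included, correlated at 0.993 or more. Which cell line each library holds was not tested, whether libraries or lines were exchanged cannot be told from these values, and every difference below rests on the labels. The effect of the hairpin and any other difference between the 2 cell populations therefore cannot be told apart, and the text speaks of genes higher or lower in shCEBPB, not of genes changed by knockdown.

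**Figure D1:**
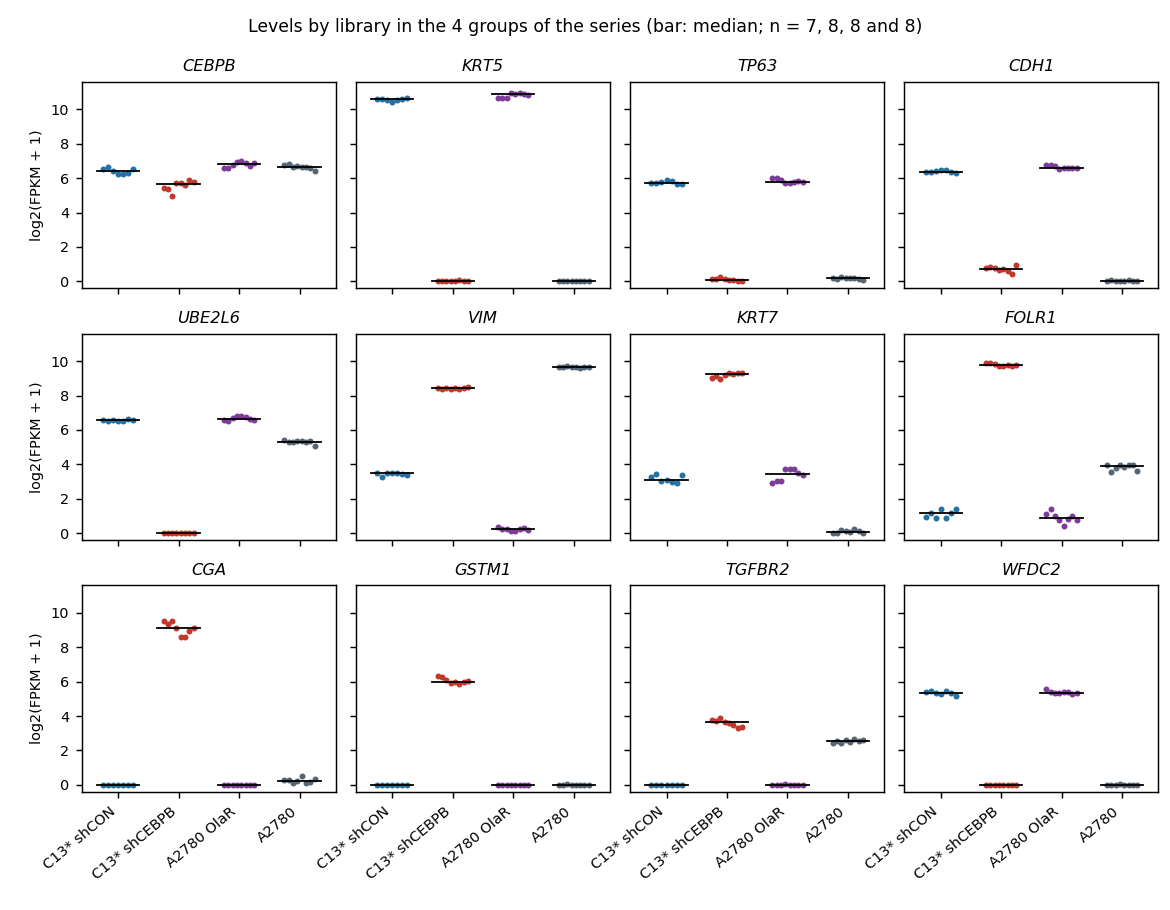
Each point is 1 library, with log2(FPKM + 1) on the y axis and the 4 groups of the series on the x axis, and bars mark medians. KRT5, TP63, CDH1, UBE2L6 and WFDC2 are high in C13* shCON and A2780 OlaR and near 0 in C13* shCEBPB, CGA and GSTM1 are high in shCEBPB and near 0 in the other groups, and CEBPB differs least.

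Markers of other cells were checked in the same libraries. In counts of markers and gene lists, higher and lower mean an adjusted p under 0.05 by limma and at least a 2-fold difference. Of all genes tested, 12.7% were higher and 16.7% lower by this rule. Markers of endothelial cells and of hepatocytes did not reach the filter (0 of 5 and 0 of 7 tested), and 1 of 7 immune markers did and was lower. Of the 12 squamous markers, 11 were lower in shCEBPB, and their summed level lay between 2102 and 2736 FPKM in shCON and between 101 and 161 FPKM in shCEBPB. Squamous markers were thus abundant in shCON libraries, although both groups are labelled adenocarcinoma, and the study has a reservation about the origin of the line. Of the markers of ovarian serous and Müllerian epithelium, 3 of 7 tested were higher and 3 lower, and PAX8, a transcription factor of that lineage, had medians of 6.2 FPKM in shCON and 0.529 FPKM in shCEBPB. Of the general epithelial markers 1 of 10 was higher and 7 were lower, and of the mesenchymal or stromal markers 4 of 5 tested were higher and 0 lower. Trophoblast markers gave 3 higher and 1 lower of 4 tested, neural and melanocyte markers 1 higher and 1 lower of 2 tested each, pluripotent and germ cell markers 1 higher of 1 tested, and intestinal markers 1 lower of 1 tested. A marker near 0 in 1 group passed the filter only through the other group, which fixed its direction in advance, so these small counts are descriptions.

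Depth differed little between the groups. The FPKM of a library summed to 432000 to 449744 in shCON and 421616 to 453895 in shCEBPB, and relative depth, estimated from low values that are whole multiples of 1 read, ranged over 0.877 to 1.23 and 0.904 to 1.13 of the overall median. Genes at 1 FPKM or more numbered 11463 to 11514 in shCON and 11045 to 11158 in shCEBPB.

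The targeted gene was lower in shCEBPB. CEBPB was at 75.2, 85.4 and 101 FPKM in shCON and at 30.2, 49.5 and 58.7 FPKM in shCEBPB. Every shCEBPB library lay below every shCON library, and the mean level was 1.82-fold lower (log2 fold change -0.87 ± 0.11 (SE), adjusted p = 1.42e-06 by limma; p = 0.000311 in a two-sided exact permutation test, which is the lowest value its 6435 arrangements allow). Within shCEBPB the libraries numbered 1 to 3 were at 30.2 to 42.1 FPKM and those numbered 4 to 8 at 47.7 to 58.7 FPKM, without overlap. With the libraries of each number range alone, the log2 fold change of CEBPB was -1.29 for 1 to 3 and -0.60 for 4 to 8. These ranges did not overlap for 49.9% of genes tested within shCEBPB and for 4.79% within shCON, with a difference of at least 2-fold in 32 and 0 genes. What separates the number ranges is not given in the sources used here.

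Over all 15 libraries CEBPB stayed under the 2-fold limit, which it passed with the libraries numbered 1 to 3 alone and with a correction for GC content and gene length (-1.22 on the log2 scale). In the C/EBP family, 1 of 6 genes tested was higher and 1 lower (median log2 fold change -0.42). CEBPG had medians of 19.7 FPKM in shCON and 12.2 FPKM in shCEBPB and CEBPD had medians of 51.1 FPKM in shCON and 43.4 FPKM in shCEBPB, both under 2-fold. CEBPA, the family member linked to differentiation and growth arrest, was at 2.16, 2.93 and 3.78 FPKM in shCON and 10.2, 18.6 and 27.1 FPKM in shCEBPB (log2 fold change 2.26 ± 0.20). All shCEBPB libraries were above all shCON libraries, although antisense transcripts share over 25% of its exon bases and counting by strand is not stated. DDIT3, the stress-induced inhibitor of the family, had medians of 17.2 FPKM in shCON and 6.66 FPKM in shCEBPB, and shares over 25% of its exon bases with antisense genes as well. Among AP-1 genes, whose products can pair with C/EBPβ, 6 of 13 genes tested were higher and 2 lower (median log2 fold change 0.24). FOSL1, a Fos protein of growth factor signalling, was at 303, 306 and 320.0 FPKM in shCON and 23.3, 25.7 and 27.8 FPKM in shCEBPB (log2 fold change -3.54 ± 0.04). FOS was at 11, 12.3 and 13.1 FPKM in shCON and 109.5, 135 and 143 FPKM in shCEBPB (log2 fold change 3.35 ± 0.06). The 2 Fos genes thus had opposite directions, and the same held for their Jun partners. JUN had medians of 29.6 FPKM in shCON and 10.5 FPKM in shCEBPB, whereas JUND had medians of 37.8 FPKM in shCON and 94.9 FPKM in shCEBPB. MAFK, a small Maf protein, had medians of 8.68 FPKM in shCON and 79.2 FPKM in shCEBPB.

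Secreted and acute-phase genes that are textbook targets of C/EBP proteins did not share a direction: 4 of 11 genes tested were higher and 5 lower (median log2 fold change -0.44). C3, the central complement component, was at 4.59, 4.91 and 5.32 FPKM in shCON and 101, 119 and 135 FPKM in shCEBPB (log2 fold change 4.33 ± 0.06). IL6, the cytokine from whose control C/EBPβ took the name NF-IL6, was at 0.0973, 0.221 and 0.374 FPKM in shCON and 13.8, 16.3 and 16.8 FPKM in shCEBPB (log2 fold change 3.79 ± 0.06). Both were higher in every shCEBPB library, as was C1S, a complement protease, which had medians of 4.56 FPKM in shCON and 21.2 FPKM in shCEBPB. LCN2, an iron-carrier binding protein, had medians of 19.6 FPKM in shCON and 1.32 FPKM in shCEBPB. S100A9, a calcium-binding alarmin, had medians of 8.52 FPKM in shCON and 0 FPKM in shCEBPB. CXCL8, a neutrophil chemokine, had medians of 6.84 FPKM in shCON and 0.333 FPKM in shCEBPB.

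The promoters of 4 genes are shown because they carry the ends of the comparison and the motif question: IL1B and IL6 are cytokine genes with opposite directions, KRT5 and CGA head the fitted falls and rises. Each line gives the 250 bases before the transcription start in the direction of the gene, from RefSeq on GRCh38.p14, with matches to TTNCNNAA (a loose form of the C/EBP motif, N for any base, searched on both strands) in capitals for IL1B, IL6 and KRT5 and matches to TGACGTCA (the cyclic AMP response element) in capitals for CGA.
IL1B: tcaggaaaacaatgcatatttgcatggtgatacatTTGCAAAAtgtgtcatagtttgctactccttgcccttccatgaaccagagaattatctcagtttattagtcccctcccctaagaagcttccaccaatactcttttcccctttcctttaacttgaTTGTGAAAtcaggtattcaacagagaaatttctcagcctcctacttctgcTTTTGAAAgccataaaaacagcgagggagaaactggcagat
IL6: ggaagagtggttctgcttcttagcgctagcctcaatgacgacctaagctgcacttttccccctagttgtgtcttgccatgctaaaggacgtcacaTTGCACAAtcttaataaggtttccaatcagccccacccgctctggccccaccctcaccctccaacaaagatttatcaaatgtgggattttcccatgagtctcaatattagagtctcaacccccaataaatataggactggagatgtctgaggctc
KRT5: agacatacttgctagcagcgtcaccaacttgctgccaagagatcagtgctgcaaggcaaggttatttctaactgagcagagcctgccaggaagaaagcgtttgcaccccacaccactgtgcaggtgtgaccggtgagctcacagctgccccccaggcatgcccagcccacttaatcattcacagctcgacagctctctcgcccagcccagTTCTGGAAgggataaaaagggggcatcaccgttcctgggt
CGA: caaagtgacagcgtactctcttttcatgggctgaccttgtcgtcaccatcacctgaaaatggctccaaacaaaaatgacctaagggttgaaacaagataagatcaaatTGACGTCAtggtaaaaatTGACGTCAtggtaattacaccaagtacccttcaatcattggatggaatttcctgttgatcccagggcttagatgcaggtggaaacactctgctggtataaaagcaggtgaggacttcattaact
The windows lie at chr2:112836780-112837029 on the minus strand (IL1B), chr7:22726950-22727199 on the plus strand (IL6), chr12:52520395-52520644 on the minus strand (KRT5) and chr6:87095107-87095356 on the minus strand (CGA). IL1B held 3 matches, whose first bases were at -215, -91 and -41 from the start, IL6 held 1 at -155 and KRT5 held 1 at -40. CGA held 2 copies of its motif, at -142 and -124. Of 9755 tested genes with a window, 29.6% had a match to TTNCNNAA, as had 31.1% of those at least 2-fold higher, 32.4% of those at least 2-fold lower and 28.7% of the rest. Over all 35116 windows the share was 33.2%. The full palindrome TTGCGCAA, which also counts as a match to TTNCNNAA, stood in 0.252% of higher, 0.259% of lower and 0.285% of the other genes, and in 0.131% of all windows. TGACGTCA stood in 3.69%, 3.17% and 3.62% of the same sets and in 1.65% of all windows. TGANTCA, the AP-1 motif, stood in 6.96% of higher, 8.34% of lower and 5.17% of the other genes, against 6.57% of all windows. These shares are descriptions, a match is not a binding site, and no test was run on them.

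Most of the transcriptome differed. At an adjusted p under 0.05 by limma, 10166 genes (84.7% of those tested) were called, 4676 (38.9%) higher and 5490 (45.7%) lower in shCEBPB. A difference of at least 2-fold was also required for the genes called higher or lower in the counts above and in what follows. This left 3539 genes (29.5%), 1530 higher (12.7%) and 2009 lower (16.7%). For 7924 genes (66%) the ranges of the groups were separate, so that a lack of overlap was common here. Over all 12006 genes the median log2 fold change was -0.07, and the counts and medians of gene lists above and below stand beside it and these shares. The medians of 15 lists changed sign under at least 1 alternative setting, and they are named at the end of the text. At least 1 FPKM in every shCON library and 0 in every shCEBPB library was listed for 128 genes, and the reverse for 41 genes. No fold change is given for such genes, and for others near 0 the pseudocount of 1 limits the size of the log2 fold change. Genes under 1 FPKM throughout 1 group could pass the filter only through the other group, so their direction was fixed in advance.

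**Figure D2:**
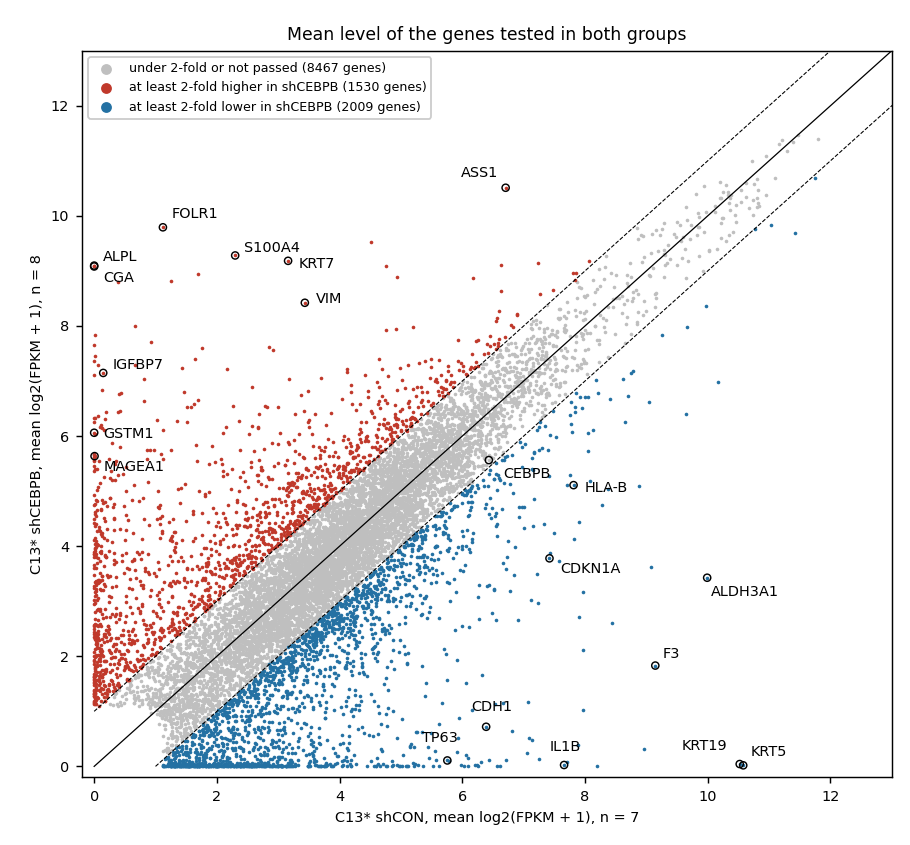
The x axis is the mean log2(FPKM + 1) of 7 C13* shCON libraries and the y axis that of 8 C13* shCEBPB libraries, with 1 point for each of 12006 genes and dashed lines at a 2-fold difference. The 1530 genes called higher and 2009 called lower spread along both axes, so that genes such as CGA and KRT5 are near 0 in 1 group, while the most abundant genes lie near the diagonal.

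The 15 largest rises by fitted fold change included secreted and surface proteins, with FOLR1 described further on. CGA, the alpha chain shared by the glycoprotein hormones, was listed at 0 in every shCON library and at 387, 558 and 734 FPKM in shCEBPB. ALPL, an alkaline phosphatase, was also listed at 0 in every shCON library and was at 421, 579 and 635 FPKM in shCEBPB. ALPI, the intestinal enzyme of that family, was listed at 0 in 5 of 7 shCON libraries and was at 137, 177 and 187 FPKM in shCEBPB. MUC13, a membrane mucin, had medians of 0 FPKM in shCON and 217 FPKM in shCEBPB. IGFBP7, a secreted binder of insulin-like growth factors, was at 0, 0.0955 and 0.306 FPKM in shCON and 121, 145 and 160.0 FPKM in shCEBPB (log2 fold change 7.0 ± 0.07). S100A4, a calcium-binding protein linked to motility, was at 2.82, 3.74 and 6.25 FPKM in shCON and 512, 623 and 793 FPKM in shCEBPB (log2 fold change 6.98 ± 0.13). The groups did not overlap for any of these genes. WISP2, a matricellular protein, had medians of 0.326 FPKM in shCON and 500.0 FPKM in shCEBPB, and OLFM1, a secreted olfactomedin, had medians of 0 FPKM in shCON and 170.4 FPKM in shCEBPB. Intracellular genes were among them too: CPS1, the first enzyme of the urea cycle, had medians of 0.59 FPKM in shCON and 241 FPKM in shCEBPB, and EEF1A2, a translation elongation factor of muscle and nerve, had medians of 2.35 FPKM in shCON and 541 FPKM in shCEBPB. GNG11, a G protein gamma subunit, was listed at 0 in all 7 shCON libraries and at a median of 134 FPKM in shCEBPB. PRSS21, a membrane serine protease of testis, was listed at 0 in all 7 shCON libraries and at a median of 219 FPKM in shCEBPB, and CRIP1, a LIM domain protein whose exons overlap another transcript by over 25%, had medians of 1.39 FPKM in shCON and 610.5 FPKM in shCEBPB. SLC43A3, a purine base transporter with a similar overlap, had medians of 0.0218 FPKM in shCON and 157 FPKM in shCEBPB.

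The 15 largest falls included keratins, adhesion genes and interleukin 1 genes. KRT5, the type II keratin of basal cells in stratified epithelium, was at 1368, 1573 and 1633 FPKM in shCON and at 0, 0.00988 and 0.0416 FPKM in shCEBPB, where 4 of 8 libraries were listed at 0 (log2 fold change -10.56 ± 0.04). KRT19, a keratin of simple and ductal epithelium, was at 1381, 1442 and 1593 FPKM in shCON and 0, 0.0165 and 0.0976 FPKM in shCEBPB (log2 fold change -10.48 ± 0.04). Both were abundant in shCON and at the edge of detection in shCEBPB. F3, tissue factor, the starter of coagulation, was at 542, 573 and 601 FPKM in shCON and 2.15, 2.52 and 3.63 FPKM in shCEBPB (log2 fold change -7.31 ± 0.07). HAS3, a hyaluronan synthase, had medians of 252 FPKM in shCON and 1.06 FPKM in shCEBPB, and CTSH, a lysosomal aminopeptidase, had medians of 105 FPKM in shCON and 0.0768 FPKM in shCEBPB. SYT8, a synaptotagmin, had medians of 287 FPKM in shCON and 0 FPKM in shCEBPB, and ZBTB7C, a zinc finger protein, had medians of 501 FPKM in shCON and 0.236 FPKM in shCEBPB. IL1A, IL1B, SPINT2, MAL2, KRT13, CDH3 and COL17A1, also of the 15, are described with their gene groups.

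Most keratins of squamous cells were lower in shCEBPB. Among the keratins of basal and stratified epithelium, 2 of 10 genes tested were higher and 8 lower (median log2 fold change -3.75). KRT14, the partner of KRT5, was at 72.3, 76.5 and 85.8 FPKM in shCON and 0, 0.0321 and 0.125 FPKM in shCEBPB (log2 fold change -6.24 ± 0.05). KRT13, a keratin of internal stratified epithelium, had medians of 134 FPKM in shCON and 0.124 FPKM in shCEBPB, and KRT6A, a keratin of wounded epidermis, had medians of 32.3 FPKM in shCON and 0 FPKM in shCEBPB. KRT15 had medians of 47.1 FPKM in shCON and 0.791 FPKM in shCEBPB, and KRT17 had medians of 611 FPKM in shCON and 262 FPKM in shCEBPB. The 2 exceptions were KRT80, which had medians of 24.2 FPKM in shCON and 120.3 FPKM in shCEBPB, and KRT10, a keratin of differentiated epidermis. Among 4 simple epithelial keratins 1 was higher and 1, KRT19, lower (median log2 fold change 0.84). KRT7, a keratin of glandular epithelium, was at 6.59, 7.46 and 9.86 FPKM in shCON and 492, 603 and 636 FPKM in shCEBPB (log2 fold change 6.02 ± 0.09). KRT8 and KRT18, the pair found in all simple epithelia, had log2 fold changes of 0.93 and 0.74 and passed the test at under 2-fold. Some keratins have near-identical copies or pseudogenes, as do some of the HLA, GSTM, IFITM, metallothionein and alkaline phosphatase genes of this text, and reads may have been split between such copies.

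Most transcription factors of squamous and epidermal cells were lower too: 2 of 16 genes tested were higher and 11 lower (median log2 fold change -1.65). TP63, the master regulator of stratified epithelium, was at 49.3, 52 and 58.9 FPKM in shCON and 0, 0.0738 and 0.198 FPKM in shCEBPB (log2 fold change -5.65 ± 0.05). EHF, an ETS factor of epithelium, had medians of 38.2 FPKM in shCON and 0.00918 FPKM in shCEBPB, and BNC1, basonuclin of basal cells, had medians of 26.4 FPKM in shCON and 0 FPKM in shCEBPB. GRHL2, a grainyhead factor that maintains epithelial junction genes, had medians of 15.6 FPKM in shCON and 0.00455 FPKM in shCEBPB. The 2 genes in the other direction were KLF4, a factor of terminal differentiation, which had medians of 10.4 FPKM in shCON and 77.3 FPKM in shCEBPB, and TFAP2A, which had medians of 33.1 FPKM in shCON and 67.1 FPKM in shCEBPB. Few genes of the cornified envelope reached the filter, and 0 of 7 genes tested were higher and 3 lower (median log2 fold change -0.93). CSTA, cystatin A, was at a median of 32.6 FPKM in shCON and listed at 0 in all 8 shCEBPB libraries, and SCEL, sciellin, was at a median of 7.44 FPKM in shCON and listed at 0 in all 8 shCEBPB libraries.

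Genes of attachment to neighbours and to the basement membrane differed by component. Among desmosome genes, 0 of 11 genes tested were higher and 5 lower (median log2 fold change -0.63). DSG3, the desmoglein of basal epidermis, was at 15.7, 16.9 and 18.4 FPKM in shCON and listed at 0 in 7 of 8 shCEBPB libraries. DSC3, its desmocollin partner, had medians of 14.7 FPKM in shCON and 0.13 FPKM in shCEBPB, PKP1 had medians of 4.43 FPKM in shCON and 0.0199 FPKM in shCEBPB and PKP2 had medians of 18.6 FPKM in shCON and 0.618 FPKM in shCEBPB. The general desmosome genes DSG2 and JUP stood at 64.3 and 171 FPKM in shCON and at 39.7 and 172 FPKM in shCEBPB (medians), and JUP did not pass the test (adjusted p = 0.56 by limma). Among genes of hemidesmosomes and of their laminin, which anchor basal cells, 0 of 9 genes tested were higher and 5 lower (median log2 fold change -1.97). COL17A1, the hemidesmosomal collagen, was at 127, 137 and 139 FPKM in shCON and 0.258, 0.405 and 0.63 FPKM in shCEBPB (log2 fold change -6.57 ± 0.06). ITGB4, its integrin, was at 133, 144 and 162 FPKM in shCON and 6.91, 10.4 and 13.6 FPKM in shCEBPB (log2 fold change -3.72 ± 0.10). Chains of that laminin were lower: LAMA3 had medians of 37.2 FPKM in shCON and 0.514 FPKM in shCEBPB and LAMB3 had medians of 97.3 FPKM in shCON and 26.2 FPKM in shCEBPB. CD151, a tetraspanin of the same complex, had a log2 fold change of 0.99, under 2-fold.

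Epithelial adhesion gave the lowest median of all lists with at least 8 genes tested: 0 of 12 genes tested were higher and 11 lower (median log2 fold change -5.59). This list too was chosen with earlier results known, so its rank and counts are descriptions. Members under 1 FPKM in every shCEBPB library, such as CDH1, EPCAM and CDH3, passed the filter only through shCON libraries, which fixed their direction in advance. CDH1, E-cadherin, was at 76.5, 81 and 88.4 FPKM in shCON and 0.349, 0.677 and 0.90 FPKM in shCEBPB (log2 fold change -5.67 ± 0.06). EPCAM, the epithelial cell adhesion molecule, was at 106, 109.9 and 116 FPKM in shCON and 0.279, 0.562 and 0.874 FPKM in shCEBPB (log2 fold change -6.17 ± 0.07). CDH3, P-cadherin, was at 133, 139.7 and 146 FPKM in shCON and 0.261, 0.391 and 0.596 FPKM in shCEBPB (log2 fold change -6.65 ± 0.05). All 3 were far apart between the groups in every library. ESRP1, the splicing regulator that sets epithelial isoforms, had medians of 45.9 FPKM in shCON and 0 FPKM in shCEBPB. SPINT2, an inhibitor of membrane serine proteases, had medians of 222 FPKM in shCON and 0.267 FPKM in shCEBPB, and MAL2, a protein of apical transport, had medians of 149.8 FPKM in shCON and 0.0768 FPKM in shCEBPB. Tight junction genes were lower as well: 0 of 16 genes tested were higher and 12 lower (median log2 fold change -1.73). CLDN4 had medians of 107 FPKM in shCON and 11.5 FPKM in shCEBPB, CLDN7 had medians of 126 FPKM in shCON and 25.4 FPKM in shCEBPB and CLDN3 was at a median of 5.46 FPKM in shCON and listed at 0 in all 8 shCEBPB libraries. MARVELD3, a tetraspan junction protein, had medians of 16 FPKM in shCON and 0.14 FPKM in shCEBPB.

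Mesenchymal genes did not move as 1 block: 4 of 9 genes tested were higher and 2 lower (median log2 fold change -0.16). VIM, vimentin, the intermediate filament of mesenchymal cells, was at 8.49, 10.1 and 10.5 FPKM in shCON and 328, 342 and 359.7 FPKM in shCEBPB (log2 fold change 4.99 ± 0.04). It was the exception to the likeness of shCON and A2780 OlaR among the genes plotted above, with a median of 0.159 FPKM in A2780 OlaR. ZEB1, a repressor of E-cadherin, had medians of 0.494 FPKM in shCON and 6.11 FPKM in shCEBPB, and SNAI1, another such repressor, had medians of 2.37 FPKM in shCON and 17.3 FPKM in shCEBPB. SNAI2, a member of the same Snail family that basal epithelium also expresses, had medians of 15.8 FPKM in shCON and 5.7 FPKM in shCEBPB, and CDH2, N-cadherin, had medians of 16.6 FPKM in shCON and 7.16 FPKM in shCEBPB.

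The highest median among lists with at least 8 genes tested belonged to the list of the gonadotropin alpha chain, alkaline phosphatases and placental genes: 10 of 11 genes tested were higher and 1 lower (median log2 fold change 3.07). The list was chosen with earlier results of these data known, so its rank and counts are descriptions. Members near 0 in shCON, such as CGA and ALPL, passed the filter only through shCEBPB libraries, which fixed their direction in advance. ALPP, the placental alkaline phosphatase, was at 2.22, 2.36 and 2.68 FPKM in shCON and 175, 185 and 238 FPKM in shCEBPB (log2 fold change 5.84 ± 0.07). PSG4, a pregnancy-specific glycoprotein, had medians of 0.0962 FPKM in shCON and 11.2 FPKM in shCEBPB, and GATA2, a transcription factor of trophoblast and blood, had medians of 5.38 FPKM in shCON and 43.3 FPKM in shCEBPB. CGB7, a beta chain of chorionic gonadotropin, was the gene in the other direction and had medians of 4.11 FPKM in shCON and 0.10 FPKM in shCEBPB. This beta chain gene and CGA thus differed in direction, although exons of other transcripts cover over 25% of CGB7. The other beta chain genes of the list are not described here. Germ-line genes were mostly untested. Of 16 cancer-testis antigens listed, 2 passed the filter and both were higher: MAGEA1 had medians of 0 FPKM in shCON and 49.3 FPKM in shCEBPB, and PRAME had medians of 0.192 FPKM in shCON and 36.5 FPKM in shCEBPB. In shCON all listed antigens together summed to at most 0.404 FPKM. Both genes thus passed the filter through shCEBPB libraries alone, which fixed their direction in advance, and nothing is read from it about the family. Of the pluripotency and germ cell genes 2 were tested, of which 1 was higher and 0 lower (median log2 fold change 0.39). Among the neuronal and neuroendocrine genes, 3 of 5 genes tested were higher and 1 lower (median log2 fold change 1.49), with NPTX1, a neuronal pentraxin, which had medians of 1.05 FPKM in shCON and 80.5 FPKM in shCEBPB. The clustered protocadherins were nearly silent, with 1 of 52 tested, which was lower (log2 fold change -1.11).

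Genes of the Müllerian lineage and of ovarian carcinoma split evenly: 3 of 8 genes tested were higher and 3 lower. FOLR1, the folate receptor of ovarian carcinoma, was at 0.829, 1.26 and 1.66 FPKM in shCON and 837, 878 and 967 FPKM in shCEBPB (log2 fold change 8.67 ± 0.08). MSLN, mesothelin, was at 27.3, 31.6 and 33.1 FPKM in shCON and 98.5, 162 and 197 FPKM in shCEBPB (log2 fold change 2.25 ± 0.12). SOX17, a lineage factor of Müllerian epithelium, was listed at 0 in all 7 shCON libraries and at a median of 1.99 FPKM in shCEBPB. WFDC2, which encodes the serum marker HE4, was at 35.4, 40.2 and 42.9 FPKM in shCON and listed at 0 in every shCEBPB library. Among surface antigens used as drug targets, 3 of 13 genes tested were higher and 6 lower (median log2 fold change -0.56). MUC1, a membrane mucin, had medians of 1.99 FPKM in shCON and 90.0 FPKM in shCEBPB.

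**Figure D3:**
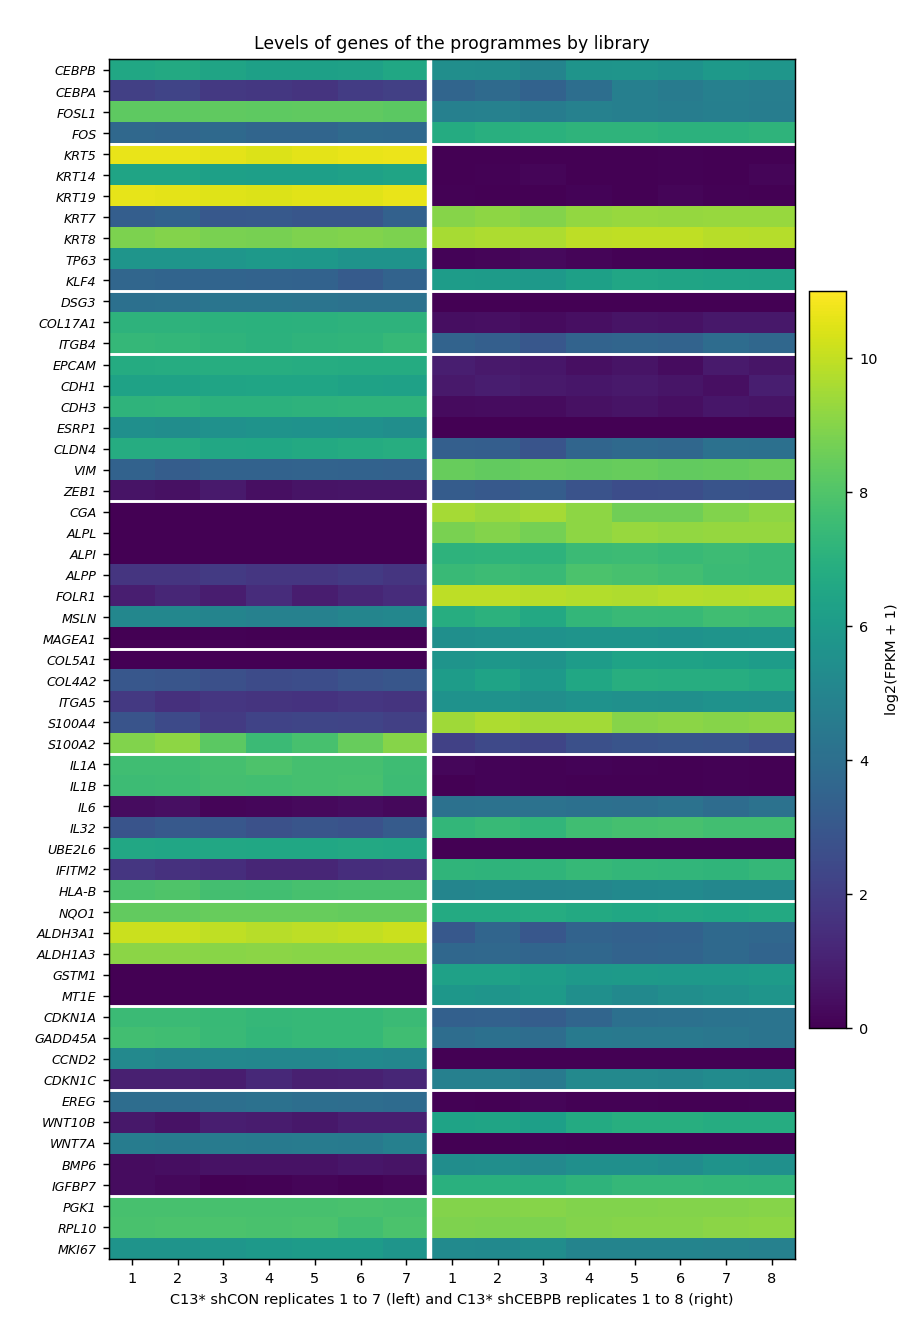
Rows are genes in blocks by programme, from C/EBP and AP-1 genes at the top to PGK1, RPL10 and MKI67 at the bottom, columns are the 15 libraries, and colour is log2(FPKM + 1). The 7 shCON columns and the 8 shCEBPB columns are alike within each group for nearly every row, S100A2 varies most within shCON, and CGA differs between shCEBPB replicates 1 to 3 and 5 to 6.

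Extracellular matrix genes had members high in either group. Among the fibrillar and other collagens, 8 of 10 genes tested were higher and 2 lower (median log2 fold change 2.20). COL5A1, a fibrillar collagen, was at 0, 0.0148 and 0.0213 FPKM in shCON and 49.4, 66.5 and 81.2 FPKM in shCEBPB (log2 fold change 6.02 ± 0.10). COL7A1, the anchoring fibril collagen, was at 0.978, 1.2 and 1.37 FPKM in shCON and 43.8, 74.7 and 88.5 FPKM in shCEBPB (log2 fold change 5.0 ± 0.14). COL6A1 had medians of 0.128 FPKM in shCON and 29.3 FPKM in shCEBPB, whereas COL27A1 had medians of 10.2 FPKM in shCON and 1.5 FPKM in shCEBPB. Among laminins and other basement membrane genes, 6 of 15 genes tested were higher and 4 lower (median log2 fold change 0.40). LAMC3 had medians of 0.263 FPKM in shCON and 43.6 FPKM in shCEBPB, and COL4A2, a chain of type IV collagen, had medians of 6.08 FPKM in shCON and 99 FPKM in shCEBPB. Among the integrins, 3 of 11 genes tested were higher and 3 lower (median log2 fold change -0.58). ITGA5, the fibronectin receptor chain, was at 1.87, 2.13 and 2.51 FPKM in shCON and 42, 46.9 and 48.2 FPKM in shCEBPB (log2 fold change 3.89 ± 0.05). ITGA3, the laminin receptor chain, was at 300.0, 325 and 348 FPKM in shCON and 28.2, 32.2 and 34 FPKM in shCEBPB (log2 fold change -3.32 ± 0.04). ITGB5, a chain of a vitronectin receptor, had medians of 12.5 FPKM in shCON and 73.1 FPKM in shCEBPB. Among the matrix proteases and inhibitors, 7 of 24 genes tested were higher and 8 lower (median log2 fold change -0.27). MMP14, the membrane collagenase, was at 76.9, 88.2 and 90.0 FPKM in shCON and 0, 0.0901 and 0.197 FPKM in shCEBPB (log2 fold change -6.32 ± 0.05). MMP28, an epidermal protease, had medians of 28.7 FPKM in shCON and 0.997 FPKM in shCEBPB, MMP17 had medians of 1.78 FPKM in shCON and 23.3 FPKM in shCEBPB, and SERPINB5, maspin of myoepithelial and squamous cells, had medians of 38.8 FPKM in shCON and 5.74 FPKM in shCEBPB.

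Small calcium-binding proteins showed opposite extremes within a family. Among the S100 proteins, 2 of 11 genes tested were higher and 3 lower (median log2 fold change -0.05). S100A2, an S100 protein of basal epithelium, was at 179.9, 347 and 555 FPKM in shCON and 3.39, 5.33 and 6.69 FPKM in shCEBPB (log2 fold change -5.83 ± 0.22). Its spread within shCON was wide, but the groups did not overlap. S100P had medians of 6.21 FPKM in shCON and 233 FPKM in shCEBPB. Of the annexins, 1 of 11 was higher and 4 were lower. ANXA6 had medians of 0.203 FPKM in shCON and 35.1 FPKM in shCEBPB, ANXA3 had medians of 159 FPKM in shCON and 20.2 FPKM in shCEBPB and ANXA1, a regulator of inflammation, had medians of 445 FPKM in shCON and 136 FPKM in shCEBPB. Of genes of the actin cytoskeleton and contraction, 4 of 17 were higher and 3 lower. TAGLN2 had medians of 268 FPKM in shCON and 584 FPKM in shCEBPB, and ACTA2, the smooth muscle actin whose exons overlap antisense genes by over 25%, had medians of 7.39 FPKM in shCON and 0.303 FPKM in shCEBPB. Among the tubulins, 4 of 11 genes tested were higher and 0 lower (median log2 fold change 0.59). TUBA1A had medians of 3.61 FPKM in shCON and 41.3 FPKM in shCEBPB, and TUBB3, the neuronal beta tubulin, had medians of 15.7 FPKM in shCON and 101 FPKM in shCEBPB. No tubulin tested was lower by 2-fold or more. Among the connexins and pannexins, which form gap junction and membrane channels, 0 of 9 genes tested were higher and 6 lower (median log2 fold change -1.56), and GJA1, connexin 43, was at a median of 28.2 FPKM in shCON and listed at 0 in all 8 shCEBPB libraries.

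Interferon-stimulated genes were more often lower than higher: 5 of 37 genes tested were higher and 17 lower (median log2 fold change -0.94). UBE2L6, the conjugating enzyme for ISG15, was at 90.5, 94.6 and 97.6 FPKM in shCON and listed at 0 in every shCEBPB library. IFI44 had medians of 6.93 FPKM in shCON and 0 FPKM in shCEBPB. MX1, an antiviral GTPase, had medians of 6.82 FPKM in shCON and 0.335 FPKM in shCEBPB. The following 3 genes of membrane proteins that restrict viruses were higher. IFITM2 was at 1.28, 1.68 and 2.39 FPKM in shCON and 142, 147 and 162 FPKM in shCEBPB (log2 fold change 5.8 ± 0.07), and IFITM3 had medians of 154 FPKM in shCON and 396 FPKM in shCEBPB. BST2, tetherin, was at 33.5, 33.9 and 40.3 FPKM in shCON and 222, 259.8 and 274 FPKM in shCEBPB (log2 fold change 2.78 ± 0.06). Genes of class I antigen presentation were called only in the lower direction: 0 of 17 genes tested were higher and 10 lower (median log2 fold change -1.16). HLA-B, of which over 25% of exon bases lie in other transcripts on the same strand, was at 203, 225 and 248 FPKM in shCON and 31.2, 33.4 and 37.2 FPKM in shCEBPB (log2 fold change -2.7 ± 0.05). HLA-F, whose exons overlap antisense genes by over 25%, had medians of 47.1 FPKM in shCON and 0.222 FPKM in shCEBPB, and PSMB9, an immunoproteasome subunit, had medians of 47.4 FPKM in shCON and 2.99 FPKM in shCEBPB. The light chain gene B2M had medians of 781 FPKM in shCON and 656 FPKM in shCEBPB, under 2-fold. Of 10 class II genes 1 was tested, and it was lower (log2 fold change -1.46). Of ligands of immune checkpoints and of NK receptors, 0 of 12 were higher and 4 lower (median -0.08), with CD47, the signal against phagocytosis, which had medians of 21.6 FPKM in shCON and 7.57 FPKM in shCEBPB. CD276, a checkpoint protein of the B7 family, had medians of 25.8 FPKM in shCON and 50.4 FPKM in shCEBPB, under 2-fold.

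Cytokines, chemokines and genes of the NF-kB response were mostly lower: 3 of 22 genes tested were higher and 12 lower (median log2 fold change -1.08). IL1A was at 189, 213 and 241 FPKM in shCON and 0, 0.0566 and 0.149 FPKM in shCEBPB (log2 fold change -7.63 ± 0.05). IL1B, whose promoter with 3 matches to the C/EBP motif is printed above, was at 183, 205 and 221 FPKM in shCON and 0, 0 and 0.0757 FPKM in shCEBPB (log2 fold change -7.63 ± 0.05). Both interleukin 1 genes were thus abundant in every shCON library and near 0 in every shCEBPB library. IL32 was at 5.62, 6.38 and 7.91 FPKM in shCON and 150.2, 199.9 and 219 FPKM in shCEBPB (log2 fold change 4.64 ± 0.09). NFKBIA, the inhibitor that NF-kB itself induces, had medians of 138 FPKM in shCON and 41.2 FPKM in shCEBPB. Of the immediate early genes, 4 of 14 were higher and 4 lower: NR4A1, a nuclear receptor, had medians of 8.65 FPKM in shCON and 91.3 FPKM in shCEBPB, and IER3, whose exons overlap antisense genes by over 25%, had medians of 269 FPKM in shCON and 34.8 FPKM in shCEBPB.

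Detoxification genes differed by family. In the list of targets of NRF2, the oxidative stress factor, which also holds the NRF2 gene and KEAP1, 1 of 24 genes tested was higher and 8 lower (median log2 fold change -0.62). NQO1, a quinone reductase, was at 327, 339.8 and 349 FPKM in shCON and 92.3, 101 and 111 FPKM in shCEBPB (log2 fold change -1.74 ± 0.04). SLC7A11, the cystine transporter, was at 36.6, 39.1 and 42.2 FPKM in shCON and 4.18, 5.39 and 8.92 FPKM in shCEBPB (log2 fold change -2.58 ± 0.13). FTL, the ferritin light chain, had medians of 2836 FPKM in shCON and 823 FPKM in shCEBPB, and GCLC, the rate-limiting enzyme of glutathione synthesis, had medians of 37.3 FPKM in shCON and 11.4 FPKM in shCEBPB. ABCC2, a drug export pump and the only member called higher, had medians of 18.8 FPKM in shCON and 38.4 FPKM in shCEBPB. Among the aldehyde dehydrogenases, 2 of 15 genes tested were higher and 5 lower (median log2 fold change -0.27). ALDH3A1 was at 890.5, 1013 and 1099 FPKM in shCON and 6.81, 10.2 and 12.7 FPKM in shCEBPB (log2 fold change -6.56 ± 0.11). ALDH1A3, an enzyme of retinoic acid synthesis, was at 529, 533 and 548 FPKM in shCON and 10.2, 11.4 and 12.5 FPKM in shCEBPB (log2 fold change -5.45 ± 0.04), with exons that overlap antisense genes by over 25%. Among aldo-keto and carbonyl reductases, 1 of 12 genes tested was higher and 6 lower (median log2 fold change -1.01). AKR1B10 had medians of 17.5 FPKM in shCON and 0.0591 FPKM in shCEBPB and AKR1C1 had medians of 13 FPKM in shCON and 0.367 FPKM in shCEBPB, whereas AKR1C3, a close copy of AKR1C1, had medians of 1.45 FPKM in shCON and 18.3 FPKM in shCEBPB. Glutathione transferases gave 4 higher and 2 lower of 13 tested (median 0.26). GSTM3 had medians of 0 FPKM in shCON and 81.9 FPKM in shCEBPB, and MGST1, the microsomal enzyme, had medians of 0.0577 FPKM in shCON and 68.7 FPKM in shCEBPB. GSTT1, another gene with a common germline deletion, had medians of 32.4 FPKM in shCON and 15.5 FPKM in shCEBPB, and GSTP1, the most abundant enzyme of the family in many carcinomas, had medians of 1206 FPKM in shCON and 958 FPKM in shCEBPB. Of the genes with a common germline deletion 2 were tested, GSTM1 and GSTT1, with a median of 2.51.

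Metal handling and transport included genes near 0 in 1 group. Among the metallothioneins, 1 of 4 genes tested was higher and 2 lower (median log2 fold change -0.73). MT1E was listed at 0 in every shCON library and at 36.3, 49.2 and 61.9 FPKM in shCEBPB, MT1F had medians of 12.9 FPKM in shCON and 0 FPKM in shCEBPB and MT2A had medians of 1042 FPKM in shCON and 331 FPKM in shCEBPB. Among the ABC transporters, 7 of 28 genes tested were higher and 4 lower (median log2 fold change 0.19). ABCB1, the multidrug export pump P-glycoprotein, had medians of 0.084 FPKM in shCON and 2.03 FPKM in shCEBPB, and ABCG2, another drug pump, had medians of 9.16 FPKM in shCON and 1.16 FPKM in shCEBPB. Among genes of copper and platinum transport, 1 of 8 genes tested was higher and 2 lower (median log2 fold change -0.23): ATP7B, a copper pump, had medians of 2.98 FPKM in shCON and 0.574 FPKM in shCEBPB, and SLC22A3, an organic cation transporter, had medians of 2.74 FPKM in shCON and 10.7 FPKM in shCEBPB. Among genes of the aryl hydrocarbon receptor and of retinoids, 3 of 12 genes tested were higher and 3 lower (median log2 fold change 0.10). CYP1B1, a target of that receptor, had medians of 1.07 FPKM in shCON and 16.4 FPKM in shCEBPB, and CRABP2, a carrier of retinoic acid, had medians of 88.7 FPKM in shCON and 6.32 FPKM in shCEBPB.

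Lipid synthesis and the hypoxia response had genes called in both directions. Among cholesterol synthesis and uptake genes, 5 of 24 genes tested were higher and 4 lower (median log2 fold change 0.39). SQLE, squalene epoxidase, had medians of 66.8 FPKM in shCON and 21.8 FPKM in shCEBPB. Among fatty acid synthesis and desaturation genes, 3 of 17 genes tested were higher and 5 lower (median log2 fold change -0.05). FADS1 had medians of 18.2 FPKM in shCON and 87.5 FPKM in shCEBPB, SCD had medians of 26.6 FPKM in shCON and 95.9 FPKM in shCEBPB and ELOVL6, an elongase, had medians of 37.6 FPKM in shCON and 0.578 FPKM in shCEBPB. Among the hypoxia response genes, 3 of 18 genes tested were higher and 7 lower (median log2 fold change -0.45). CA9, the carbonic anhydrase of hypoxic tumours, had medians of 40.7 FPKM in shCON and 5.68 FPKM in shCEBPB, with an antisense overlap over 25%. EGLN1, the oxygen sensor of the pathway, had medians of 9.01 FPKM in shCON and 36.4 FPKM in shCEBPB, and shares over 25% of its exon bases with another transcript. HIF1A, the oxygen-regulated factor itself, had medians of 137 FPKM in shCON and 37.7 FPKM in shCEBPB.

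Core machinery had few genes called, against 29.5% of all genes tested. Of 68 respiratory chain subunits, 2 were higher and 2 lower (median log2 fold change 0.15). NDUFAB1 had medians of 51.9 FPKM in shCON and 125 FPKM in shCEBPB, and NDUFA7, which shares over 25% of its exon bases with transcripts on the same strand, had medians of 95.3 FPKM in shCON and 39.4 FPKM in shCEBPB. Of 78 cytosolic ribosomal proteins, 1 was higher and 2 were lower (median -0.18). RPL10 had medians of 235 FPKM in shCON and 502 FPKM in shCEBPB, with over 25% of its exon bases shared with antisense genes, and RPS29 had medians of 421 FPKM in shCON and 137 FPKM in shCEBPB. Of 20 glycolysis genes 2 were higher and 0 lower: SLC16A3, the lactate exporter, had medians of 46.3 FPKM in shCON and 198 FPKM in shCEBPB, and PGK1 had medians of 221 FPKM in shCON and 493 FPKM in shCEBPB. SLC2A1, the main glucose transporter, had medians of 59.6 FPKM in shCON and 30.7 FPKM in shCEBPB and passed the test at under 2-fold. Of 20 proteasome genes 2 were higher and 1 lower (median 0.25): PSMC3 had medians of 85.7 FPKM in shCON and 229 FPKM in shCEBPB and PSMA3 had medians of 221 FPKM in shCON and 85.4 FPKM in shCEBPB. Of the unfolded protein response of the endoplasmic reticulum 1 of 17 genes was higher and 0 were lower (median 0.26). The gene called was SDF2L1, a chaperone partner, which had medians of 31.1 FPKM in shCON and 78 FPKM in shCEBPB.

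Heat shock genes were called in both directions: 3 of 16 genes tested were higher and 2 lower (median log2 fold change 0.27). The share called, 31.25%, was near the 29.5% of all genes tested, and nothing is read from it. HSPB8, a small heat shock protein, had medians of 0.286 FPKM in shCON and 46.3 FPKM in shCEBPB, its partner BAG3 had medians of 63.5 FPKM in shCON and 18.7 FPKM in shCEBPB, and CRYAB, alpha B crystallin, had medians of 0 FPKM in shCON and 7.23 FPKM in shCEBPB. Among the genes of the integrated stress response and amino acid supply, 1 of 21 genes tested was higher and 7 lower (median log2 fold change -0.79). ASS1, an enzyme on the path from citrulline to arginine, was at 97.7, 103 and 109.8 FPKM in shCON and 1290.1, 1525 and 1595 FPKM in shCEBPB (log2 fold change 3.8 ± 0.05). CHAC1, which degrades glutathione under stress, had medians of 5.39 FPKM in shCON and 0.89 FPKM in shCEBPB. ASS1 and CPS1, both enzymes of the urea cycle, were thus higher in every shCEBPB library. ASL, another enzyme of that cycle and a member of this list, was not called higher, so nothing is read about the cycle.

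Cell cycle genes were called more often among G1/S regulators than among mitosis genes. Of the regulators of G1/S, 9 of 26 were higher and 6 lower. The D cyclins differed in direction: CCND1 had medians of 125 FPKM in shCON and 43.7 FPKM in shCEBPB, CCND2 was at 32.2, 33.4 and 36.7 FPKM in shCON and 0, 0 and 0.0174 FPKM in shCEBPB and CCND3 had medians of 21.1 FPKM in shCON and 101 FPKM in shCEBPB. CDKN1A, the inhibitor p21, was at 158, 168 and 181 FPKM in shCON and 8.48, 13.2 and 18 FPKM in shCEBPB (log2 fold change -3.64 ± 0.14). CDKN1C, the inhibitor p57, was at 0.864, 0.982 and 1.37 FPKM in shCON and 21.5, 34.2 and 38.9 FPKM in shCEBPB (log2 fold change 3.97 ± 0.11). CDKN2C, an inhibitor of CDK4 and CDK6, had medians of 10.3 FPKM in shCON and 76.1 FPKM in shCEBPB, and CDK6 had medians of 12 FPKM in shCON and 50.7 FPKM in shCEBPB. Inhibitors and activators thus stood on both sides. Of 34 genes of G2/M and mitosis, 0 were higher and 1 was lower, CENPE, a kinetochore motor, which had medians of 19.2 FPKM in shCON and 7.08 FPKM in shCEBPB. MKI67, the proliferation marker, had medians of 54.1 FPKM in shCON and 30.4 FPKM in shCEBPB and stayed under 2-fold. Near CDKN2A on chromosome 9, 1 of 3 genes was higher and 1 lower: CDKN2A had medians of 280.4 FPKM in shCON and 228 FPKM in shCEBPB, and MTAP had medians of 28.3 FPKM in shCON and 11.5 FPKM in shCEBPB, so neither gene was absent in either group.

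Targets of p53 were called mostly in the lower direction: 1 of 21 genes tested was higher and 10 lower (median log2 fold change -0.81). GADD45A, a stress sensor, was at 156, 175 and 206 FPKM in shCON and 14.2, 18.8 and 21.3 FPKM in shCEBPB (log2 fold change -3.25 ± 0.09). BTG2, an antiproliferative gene, had medians of 58.1 FPKM in shCON and 4.69 FPKM in shCEBPB, and TP53I3, the only member called higher, had medians of 1.57 FPKM in shCON and 5.8 FPKM in shCEBPB. In the BCL2 family, 0 of 13 genes tested were higher and 5 lower (median log2 fold change -0.81). BCL2L1, the survival gene of which over 25% of exon bases overlap an antisense gene, had medians of 211 FPKM in shCON and 34.3 FPKM in shCEBPB, and BAX, the death effector, had medians of 158 FPKM in shCON and 59.9 FPKM in shCEBPB. A survival gene and a death gene were thus both lower.

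Several growth factor ligands were lower in shCEBPB. In the EGFR family, 0 of 9 genes tested were higher and 5 lower (median log2 fold change -2.57). TGFA was at 21.5, 22.2 and 23.2 FPKM in shCON and 0.192, 0.435 and 0.916 FPKM in shCEBPB (log2 fold change -4.0 ± 0.10). EREG, epiregulin, was at 13.3, 14.5 and 16 FPKM in shCON and 0, 0.0406 and 0.0937 FPKM in shCEBPB (log2 fold change -3.9 ± 0.04). NRG1, the ligand of ERBB3, had medians of 32.1 FPKM in shCON and 0.163 FPKM in shCEBPB, and AREG, amphiregulin, had medians of 17.7 FPKM in shCON and 0.926 FPKM in shCEBPB. The receptors EGFR and ERBB2 stood at 62.6 and 24 FPKM in shCON and at 73.8 and 17.2 FPKM in shCEBPB (medians), both under 2-fold. Among the genes of the FGF pathway and its feedback, 5 of 16 genes tested were higher and 9 lower (median log2 fold change -1.22). DUSP6, a phosphatase of ERK that ERK signalling induces, had medians of 16.6 FPKM in shCON and 0.346 FPKM in shCEBPB, with an antisense overlap over 25%, and FGFR4 had medians of 4.72 FPKM in shCON and 21.7 FPKM in shCEBPB. In the list of YAP targets, which also holds YAP1, WWTR1 and TEAD genes, 2 of 16 genes tested were higher and 5 lower. The median log2 fold change of the list was 0.40, so that the median lay above 0 while more genes were called lower. CTGF, a classic target, had medians of 5.06 FPKM in shCON and 52 FPKM in shCEBPB.

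Developmental signalling pathways had members high in either group. Among the genes of the WNT pathway, 8 of 30 genes tested were higher and 10 lower. WNT10B was at 0.469, 0.813 and 0.921 FPKM in shCON and 72.3, 107 and 118 FPKM in shCEBPB (log2 fold change 5.83 ± 0.11). WNT7A, a ligand of Müllerian duct and skin, was at 21.4, 22.8 and 26.5 FPKM in shCON and 0, 0 and 0.0562 FPKM in shCEBPB. DKK1, a secreted WNT inhibitor, had medians of 171 FPKM in shCON and 37.7 FPKM in shCEBPB. Of the Notch pathway, 5 of 14 were higher and 5 lower: the ligand DLL1 had medians of 22.8 FPKM in shCON and 0 FPKM in shCEBPB and the receptor NOTCH3 had medians of 2.28 FPKM in shCON and 30.6 FPKM in shCEBPB. Among the genes of the TGF-beta and BMP pathway, 11 of 26 genes tested were higher and 6 lower (median log2 fold change 0.68). BMP6 was at 0.285, 0.45 and 0.59 FPKM in shCON and 35.7, 42.7 and 48.8 FPKM in shCEBPB (log2 fold change 4.92 ± 0.06), whereas BMP4 had medians of 16.3 FPKM in shCON and 0.275 FPKM in shCEBPB. TGFBR2, the signalling receptor for TGF-beta, was listed at 0 in every shCON library and at 9.0, 11.4 and 13.8 FPKM in shCEBPB. Among the genes of the insulin-like growth factor system, 7 of 16 genes tested were higher and 4 lower (median log2 fold change 0.72). IGFBP4 was at 0.215, 0.329 and 0.476 FPKM in shCON and 62.2, 91.3 and 107 FPKM in shCEBPB (log2 fold change 6.04 ± 0.10), IGF2BP3, an RNA-binding protein, had medians of 4.45 FPKM in shCON and 33.7 FPKM in shCEBPB, and the receptor gene IGF1R had medians of 4.54 FPKM in shCON and 26 FPKM in shCEBPB.

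HOX genes, which encode position along the body axis, were active in both groups with different members high. Of 30 tested, 9 were higher and 14 lower (median -0.89). HOXA9 was at 25.6, 26.6 and 28.5 FPKM in shCON and 0.859, 1.03 and 1.33 FPKM in shCEBPB (log2 fold change -3.74 ± 0.06). HOXC11 was at 2.27, 3.2 and 3.52 FPKM in shCON and 18.7, 20.9 and 22.4 FPKM in shCEBPB (log2 fold change 2.41 ± 0.06). HOXD10 had medians of 10.9 FPKM in shCON and 0.0071 FPKM in shCEBPB, and HOXA13 had medians of 0.256 FPKM in shCON and 5.73 FPKM in shCEBPB. HOX clusters hold antisense transcripts, and strand is not stated. Among chromatin regulators, 20.0% of SWI/SNF subunits and 20.8% of DNA methylation and Polycomb genes tested were called, against 29.5% of all genes tested, and nothing is read from this difference. Of the SWI/SNF subunits, 2 of 20 were higher and 2 lower (median 0.25): PHF10 had medians of 8.2 FPKM in shCON and 23.7 FPKM in shCEBPB, and SMARCA2, an ATPase, had medians of 26.8 FPKM in shCON and 10.1 FPKM in shCEBPB. Of DNA methylation and Polycomb genes, 3 of 24 were higher and 2 lower: CBX2 had medians of 9.42 FPKM in shCON and 38.4 FPKM in shCEBPB, and CBX7 had medians of 7.66 FPKM in shCON and 2.15 FPKM in shCEBPB. These 2 chromobox genes encode alternative subunits of the same Polycomb complex and had opposite directions. Among replication-dependent histones, 2 of 8 genes tested were higher and 0 lower (median log2 fold change 0.80), with HIST1H2BK, which had medians of 30.5 FPKM in shCON and 89.9 FPKM in shCEBPB, although mRNA without a poly(A) tail is poorly captured by mRNA libraries.

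Families defined only by the letters of their symbols, with at least 15 genes tested, gave the same kind of description without a chosen list. Their counts stand beside 12.7% higher and 16.7% lower of all genes tested. Collagens (COL) had 11 higher and 4 lower of 17 (median 2.03) and keratins (KRT) 4 higher and 10 lower of 17 (median -1.40). Cytochromes P450 (CYP) had 4 higher and 8 lower of 16 (median -0.98), myosins (MYO) 4 higher and 8 lower of 16 (median -0.96) and interleukins with their receptors (IL) 5 higher and 16 lower of 34 (median -0.89). Phosphodiesterases (PDE) had 7 higher and 3 lower of 15 (median 0.50), and dual-specificity phosphatases (DUSP) 6 higher and 5 lower of 17 (median -0.01). Solute carriers (SLC) had 42 higher and 42 lower of 217 (median 0.01), so both directions were equally frequent in this family of transporters. Zinc finger genes (ZNF) had 20 higher and 73 lower of 384 (median -0.31). Histones (HIST) had 7 higher and 0 lower of 22 (median 0.65). Few genes were called among subunits of cytochrome oxidase and its assembly (COX) with 0 higher and 0 lower of 20 (median 0.16), the Mediator complex (MED) with 0 higher and 1 lower of 30 (median -0.04), and mitochondrial ribosomal proteins of the large (MRPL) and small (MRPS) subunit with 1 higher and 1 lower of 49 (median 0.04) and 1 higher and 0 lower of 28 (median 0.29).

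The genes called were not spread evenly over the chromosomes. On chromosome 4, 37.2% of 425 genes tested were lower and 7.06% higher, against 16.7% and 12.7% of all genes tested, with a median log2 fold change of -0.70. On chromosome 14, 33.7% of 401 were lower and 8.73% higher (median -0.44). On chromosome 20, which carries CEBPB itself, 21.7% of genes tested were lower (median -0.43), and on chromosome 18 the share was 21.4%. The opposite was seen on chromosome 7, with 18.9% of 555 genes higher (median 0.31), and on chromosome X, with 19.9% of 362 higher (median 0.32). Chromosomes 10 and 16 came close, with 17.6% and 17.3% higher. The medians of chromosomes 4, 14 and 20 stayed below 0 and those of 7 and X above 0 under all 12 alternative settings. They lay between -0.83 and -0.38 for chromosome 4, between -0.52 and -0.23 for chromosome 14, between 0.04 and 0.39 for chromosome 7 and between 0.02 and 0.48 for chromosome X. A stable sign was not particular to these: the medians of chromosomes 2, 5, 13, 17, 21 and 22 also stayed below 0 and that of chromosome 10 above 0. Genes of 1 chromosome are not independent, no test was run on these shares, and copy number was not measured.

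**Figure D4:**
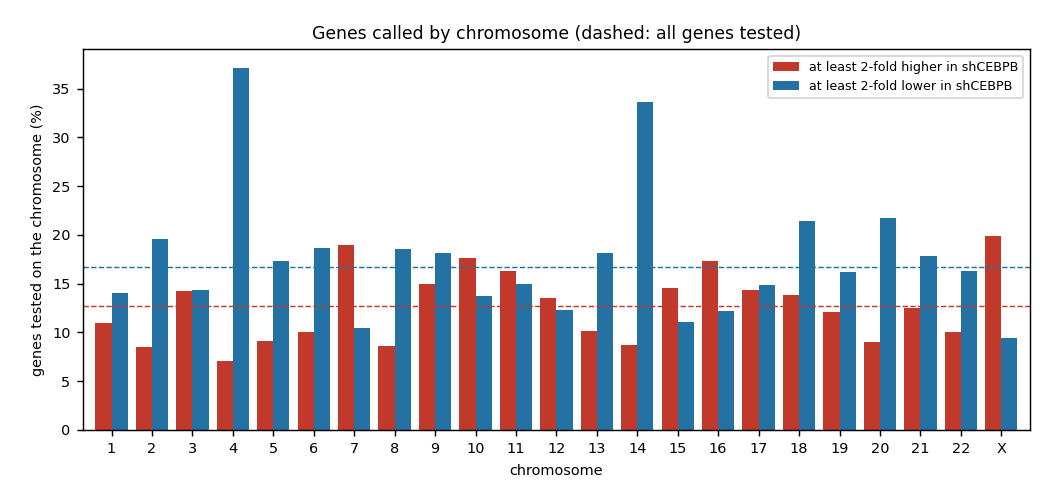
Bars give the percentage of genes tested on each chromosome that were at least 2-fold higher (red) or lower (blue) in shCEBPB, and dashed lines give the percentage over all genes tested, 12.7% and 16.7%. The blue bars of chromosomes 4 and 14 reach 37.2% and 33.7%, and the red bars of chromosomes 7 and X reach 18.9% and 19.9%.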

How the data were processed

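RNA of C13* cells was sequenced as 150-bp paired-end mRNA libraries, and per the labels and the methods of the study the authors used FastQC, TopHat with hg38, HTSeq and edgeR. The deposited values are FPKM per gene, a normalized level and not counts, and the tool, annotation and strand setting behind the authors' FPKM values are not given in the sources used here. The table had 19225 entries, and 4 repeated entries of 2 symbols were dropped. 23 symbols had turned into dates and stayed unmatched. Because FPKM are not counts, limma 3.58.1 in R 4.3.3 (trend) was run on log2(FPKM + 1) in place of a count model, with Benjamini-Hochberg adjustment over 12006 genes with at least 1 FPKM in at least 7 of 15 libraries. A gene was called higher or lower at an adjusted p under 0.05 and at least 2-fold. CEBPB alone was also tested with an exact permutation test (scipy 1.17.1). Low FPKM were whole multiples of 1 read's worth (within 0.05) for 87.7% of 6224 values, which gave relative depth only. Some named genes are not reported here. Genes, lists and markers were chosen with earlier results of these data known. Named were CEBPB, the 15 largest fitted rises and falls among called genes without overlap, members of the lists, by preference the largest changes, and symbol families with at least 15 genes tested. No 2 libraries had identical values. Overlaps of exons came from GENCODE 44 and promoters from RefSeq. The steps were tested on simulated data, where 200 of 200 genes changed by 1.5 on the log2 scale were recovered. The simulated noise was independent between libraries, and only those 200 of 12006 genes, none of them near 0, were changed. It therefore does not cover data in which most genes differ, many are near 0 in 1 group and libraries of a group differ by number range. Alternatives were another pseudocount, other filters, scalings, a correction for GC content and length, a replicate block, subsets of libraries and a fit of all 4 groups.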

Additional observations from a re-analysis of the deposited data

Results flagged for a closer look

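The library farthest from its group was compared with its nearest neighbour relative to the range of the group (Dixon's criterion) for 358 values of a named gene in a group, and 9 passed the 95% limit for 7 or 8 libraries. Chance alone passes about 1 in 20 groups, which is more than was seen. In shCON, replicate 6 was lowest for KLF4 with 8.0 FPKM, where the others began at 10.1 FPKM. The same library was lowest for RPL10 with 203 FPKM, against 228 FPKM in the next library, and highest for PGK1 with 230.1 FPKM, against 223 FPKM. KRT6A was highest in shCON replicate 7 with 37.4 FPKM, against 33.4 FPKM in the next library, and HIST1H2BK in shCON replicate 5 with 39.4 FPKM, against 32.2 FPKM.

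In shCEBPB, replicate 4 was lowest for PRC1, a protein of the mitotic spindle midzone whose exons overlap same-strand and antisense transcripts by over 25% each, with 138 FPKM, where the next library had 148 FPKM. It was also highest for NOTCH3 with 39.8 FPKM, against 33.2 FPKM. ITGA3 was lowest in replicate 3 with 28.2 FPKM, against 31.8 FPKM in the next library. F3 was highest in replicate 2 with 3.63 FPKM, against 2.70 FPKM. For each of the 9 genes the ranges of the 2 groups stayed separate, and PRC1 differed by under 2-fold between them.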

How the results depend on the processing

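Of 3539 genes called, at least 88.8% were called again under each of the 12 alternative fits among the genes those fits tested, and 0 changed direction. The other filters and the fit of all 4 groups leave each fold change as it is, and a pseudocount of 0.1 mostly enlarges it. These fits kept 100% of the calls they tested and could hardly overturn a call or a named value, so they say little about stability. Counts of called genes ran from 2564 with a filter at 5 FPKM, which tests 9483 genes, to 4076 with a pseudocount of 0.1. With a log2 fold change of at least 2 required, 1233 genes remained past the limit, 550 higher and 683 lower. The replicate block gave 3553 called genes and 9887 at an adjusted p under 0.05, and the block together with a correction for GC and length gave 3409 and 10450. Libraries with the same replicate number in both groups did not deviate together (mean r -0.148 against 0.0234 for different replicate numbers, and 0 of 7 correlated best with their own). For some shCON libraries the replicate number differs from the library number used above, and the replicate block follows the replicate number. These values therefore do not decide whether the samples were paired. Among 2688 values of the 225 named genes other than CEBPB under alternatives, 2654 kept direction and side of the threshold, 23 fell below it (of JUND, TFAP2A, CDH2, ABCC2, ATP7B, SLC16A3, RPL10, PSMA3, SDF2L1, CENPE, TP53I3, MTAP and GSTT1) and 10 rose above it (of KRT8, CD151, SLC2A1, PRC1 and MKI67). CEBPB had a log2 fold change that ran from -0.60 with the libraries numbered 4 to 8 alone to -1.29 with those numbered 1 to 3 alone and was -1.22 with the correction for GC and length, with and without the block, so that it passed 2-fold in 3 of the 12 alternatives. JUP, which did not pass the test, had a log2 fold change of 0.087 with the libraries numbered 4 to 8 alone, above 0 instead of below, and the cause was not tested. The medians of 15 lists took the other sign in at least 1 alternative: AP-1, Müllerian, pluripotency, S100, annexin, actin, glycolysis, respiratory chain, G1/S, G2/M, WNT, Notch, SWI/SNF, DNA methylation and immediate early genes. The median of the ovarian marker set did so as well. FPKM without counts give no counting error, and genes listed at 0 have no bound on their fold change.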
